A study of Mus musculus with 16 samples.

Results

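Cytokine receptor genes encode the cell surface proteins that bind interleukins, interferons, colony-stimulating factors and the ligands of the tumour necrosis factor (TNF) family. They were followed here in macrophages, phagocytic immune cells, which were cultured from mouse bone marrow. Members were chosen by their symbol in the platform annotation: every symbol that starts with Tnfrsf, Ifnar or Ifngr, or that reads Il, digits and r, or Csf, a digit and r, with Il6st added and Il1rn left out. This gave 65 of the 19937 named genes on the array, measured by 69 probe sets, and the probe set with the highest mean over the 16 arrays stood for each gene. Of the 65, 51 had a mean level of at least 6 and the other 14, among them Il2ra, Il23r and Il1r2, were dimmer. A level is a log2 expression value made by robust multi-array average (RMA), so a log2 difference of 1 is a 2-fold change, and levels of different genes were not set against each other.

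The 4 groups held 4 arrays each: NFAT5 knockout (KO) cells with LPS, wild-type (WT) cells with LPS, unstimulated KO cells and unstimulated WT cells, all of 129sv background. NFAT5 is a transcription factor of the response to high salt, and macrophages sense LPS, a component of bacterial walls, through Toll-like receptors. Not given in the sources used are the dose and length of LPS treatment, the knockout allele and the cells in which it was deleted. Whether the 4 arrays of a group stand for separate animals is not labelled either, so p-values reflect the spread among these samples alone, which may be technical.

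Most receptors for interleukins and interferons join a chain that binds the ligand with a chain shared by several ligands, and signal through Janus kinases and STAT proteins. Receptors for IL-1, IL-18 and IL-17 instead recruit adaptors that lead to NF-κB, and receptors of the TNF superfamily recruit TRAF proteins or, where they carry a death domain, adaptors of cell death. In macrophages these receptors set which cytokines the cell can answer, and soluble or decoy forms can take up a ligand without a signal.

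Nfat5 had levels of 8.67 to 9.29 in KO cells with LPS, 9.80 to 10.57 in WT cells with LPS, 8.93 to 9.20 in unstimulated KO cells and 9.15 to 9.67 in unstimulated WT cells. The genotypes did not overlap with LPS (log2 difference -0.98 ± 0.162, SE, limma adjusted p = 0.00169) and overlapped without it. As the exons deleted are not named, this signal is no check of the labels. Xist, made in female cells, lay above the Y-linked Kdm5d in 10 arrays, all 8 of WT cells and both KO arrays numbered 4, and below it in the 6 KO arrays numbered 1 to 3. Genotype and sex therefore largely coincide, and the receptor genes called between genotypes are also given for those 10 arrays, where a treatment has a single KO array, whose spread is taken from the other groups. A sex term is set by the KO arrays alone, those numbered 4 against those numbered 1 to 3. It therefore cannot tell sex from any other trait of the KO arrays numbered 4. Of 7 macrophage markers, Adgre1 and Lyz2 were high on every array (12.997 to 13.379 and 13.51 to 13.75), while 3 rose and 2 fell with LPS in KO cells and 1 rose and 2 fell in WT cells. Mean levels of the list were 12.12 to 12.15 in KO cells with LPS, 11.95 to 12.08 in WT cells with LPS, 11.88 to 12.06 in unstimulated KO cells and 12.21 to 12.30 in unstimulated WT cells, so the genotypes did not overlap in either treatment. Mertk was higher in KO cells with LPS (log2 difference 0.79, adjusted p = 0.00891) and Cd14 lower in unstimulated KO cells (-1.20, adjusted p = 5.13e-05). Among markers of other cells, Cd3d of T cells, Cd79a of B cells and Ly6g of neutrophils reached at most 5.72, 4.76 and 5.74, while Cd4, Cd3e, Cd79b and Camp reached 8.04, 7.68, 7.10 and 8.23. With LPS, 1 of 5 T cell markers was called higher and 1 lower in WT cells, 1 of 4 B cell markers higher in WT cells, and 1 of 7 neutrophil markers higher in each genotype, and 0 markers of these 3 lists were called between genotypes by limma (1 with LPS, and without LPS 2 of B cells and 1 of T cells, had an unadjusted p under 0.05). Of 5 dendritic cell markers only Itgax was called in an LPS comparison, with a rise in both genotypes, and Itgax was lower in KO than in WT cells with LPS (log2 difference -1.83). Mean levels of that list were 6.91 to 7.46 in KO cells with LPS, 7.60 to 7.88 in WT cells with LPS, 6.81 to 7.07 in unstimulated KO cells and 6.89 to 7.11 in unstimulated WT cells. Of 6 stromal markers only Pdgfrb was called with LPS, also higher in both genotypes and lower in KO than in WT cells with LPS (-0.90), and the part of these markers in the receptor results was not tested.

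LPS lowered Il6ra, Il6st, Il7r, Il21r and Ifngr1, which encode chains of the receptors for IL-6, IL-7, IL-21 and interferon gamma, in both genotypes. Of the TNF receptor superfamily, Tnfrsf1b, Tnfrsf10b and Tnfrsf14 rose in both genotypes, while other members, among them Tnfrsf21, fell. In KO cells 24 of the 65 genes were called (36.9%), 10 higher and 14 lower with LPS, against 24.7% of all 19937 genes (12% higher and 12.7% lower). In WT cells 29 were called (44.6%), 13 higher and 16 lower, against 30.8% of all genes (14% higher and 16.8% lower). A call is an adjusted p under 0.05 in limma with Benjamini-Hochberg adjustment over all genes. Brighter genes were called more often: among genes with a mean of at least 6 the share of all genes called was 33.6% in KO and 41.4% in WT cells, and 23 and 28 of the 51 members in that range were called when it was fitted alone. The median log2 change of the 65 members was 0.01 in KO cells and 0.106 in WT cells, against 0.00983 and 0.0615 over all genes. Changes of at least 2-fold were called for 7 of the 65 members in KO cells and for 9 in WT cells, against 1254 and 1627 of all 19937 genes. In such bulk RNA, fewer cells of a type and less RNA per cell cannot be told apart.

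By genotype, 8 members were called higher with LPS in both and 13 lower in both, 33 in neither, and 0 were called in opposite directions. The 5 called higher in WT cells alone were Csf2rb, Il17ra, Il1rap, Il2ra and Tnfrsf8, and the 3 called lower in WT cells alone were Csf1r, Il12rb2 and Tnfrsf22. In KO cells alone Il13ra1 and Tnfrsf1a were called higher and Il4ra lower. A call in a single genotype does not show a difference between them. The test of that difference, KO minus WT in the LPS response, called 3 members, all with a smaller fall in KO cells, and they are given below with their families.

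**Figure D1:**
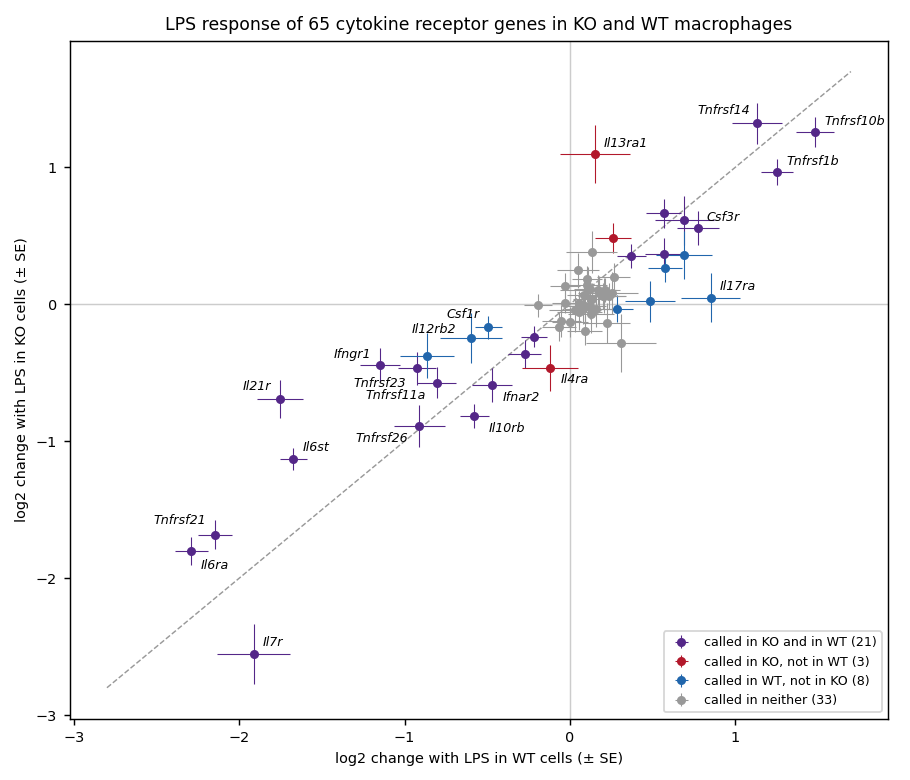
Log2 change with LPS against unstimulated cells for the 65 genes, in KO cells on the vertical and in WT cells on the horizontal axis, each point with its SE (4 arrays against 4). The dashed line marks equal change; Il6st, Il21r and Ifngr1 lie above it on the side of falls, and Il7r is the lowest point with -2.55 in KO cells and -1.91 in WT cells.

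Between genotypes fewer genes differed. With LPS, 6 of the 65 were called (9.23%), 4 higher and 2 lower in KO than in WT cells, against 3.05% of all genes (1.8% higher and 1.26% lower). The higher ones were Il12rb2, Il6ra, Il6st and Tnfrsf21, and the lower ones Il17ra and Tnfrsf1b. Without LPS, Il21r and Tnfrsf23 were called, both lower in KO cells (3.08% of members), against 1% of all genes (0.14% higher and 0.863% lower). For the difference in the LPS response, Ifngr1, Il21r and Il6st were called (4.62%), against 1.29% of all genes (0.988% higher and 0.301% lower). A block for the replicate number gave 7 members with LPS (4.77% of all genes), adding Ifngr1, 5 without LPS (1.64% of all genes), adding Il7r as higher and Il10ra and Tnfrsf22 as lower in KO cells, and the same 3 for the difference in response (2.26% of all genes). Among genes with a mean of at least 6, fitted alone, the same 6, 2 and 3 members were called, against 4.6%, 1.53% and 1.97% of those genes. In the 10 arrays with Xist above Kdm5d only Il17ra with LPS and Tnfrsf23 without LPS were called, and with a block and a sex term together the same 2 genes were called between genotypes. For the difference in response 0 were called in the 10 arrays by limma, with 5 at an unadjusted p under 0.05, and 4 with a block and a sex term, adding Il17ra.

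**Figure D2:**
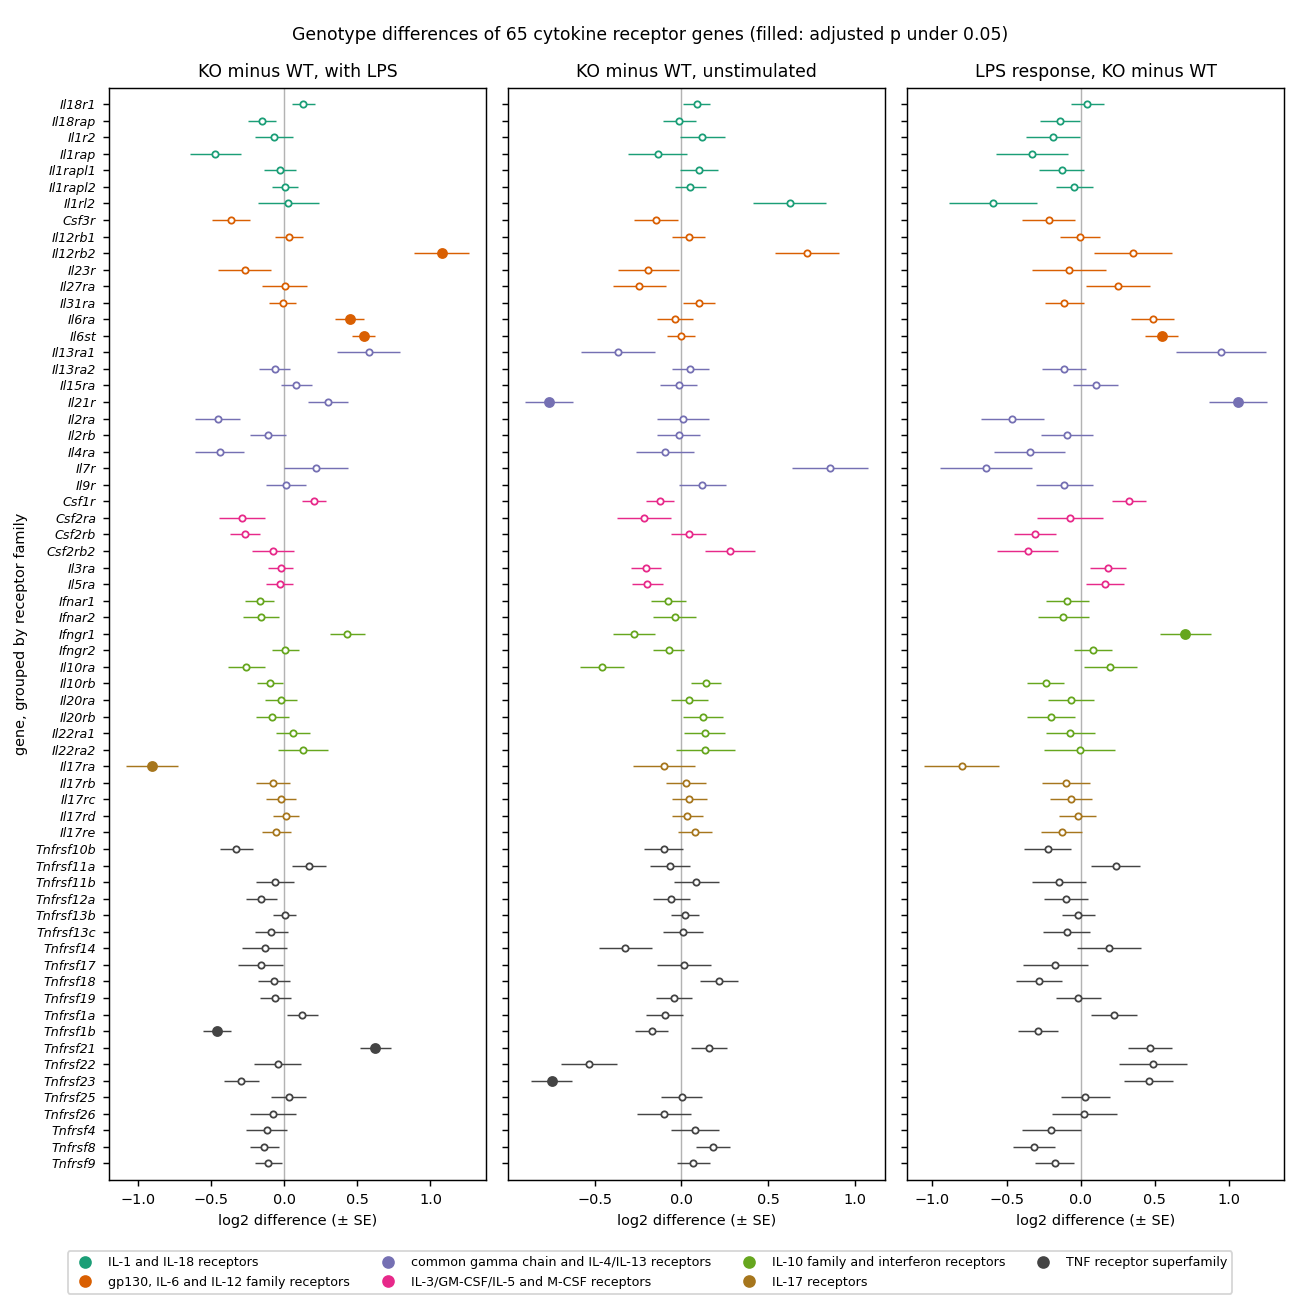
Log2 differences with their SE for all 65 genes, grouped by receptor family and coloured by it, for KO minus WT with LPS (left), KO minus WT unstimulated (middle) and the LPS response in KO minus that in WT cells (right). Filled points are the 6, 2 and 3 genes called, and the open points run from -0.47 to 0.58, -0.53 to 0.86 and -0.80 to 0.94.

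**Figure D3:**
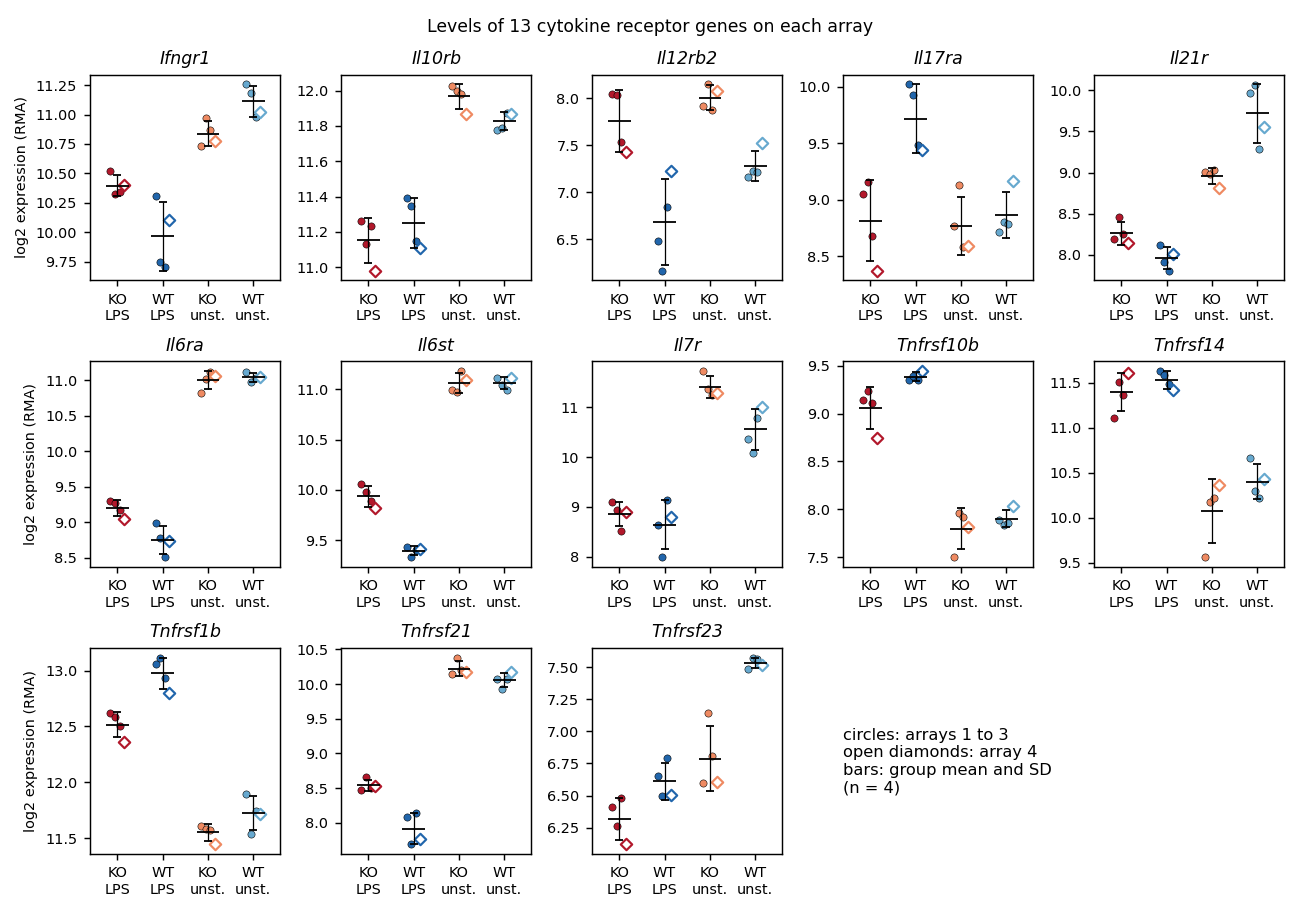
Log2 level on each array for 13 genes, with the group mean and SD (n = 4), in the order KO with LPS, WT with LPS, KO unstimulated and WT unstimulated. Open diamonds are arrays numbered 4; for Il6st and Il6ra both unstimulated groups share 1 level and the KO arrays with LPS lie above the WT arrays with LPS.

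Receptors for IL-6, IL-11, LIF and oncostatin M share gp130, the signalling chain encoded by Il6st, and the receptors for IL-12, IL-23 and G-CSF are related to it in structure. Of the 8 genes of this family, 2 were called higher and 2 lower with LPS in KO cells, and 2 higher and 3 lower in WT cells. Over all genes the shares were 12% higher and 12.7% lower in KO cells, and 14% and 16.8% in WT cells. The bases upstream of the Il6st start are shown because this gene was called in 4 of the 5 comparisons, and those of Csf3r, the receptor for granulocyte colony-stimulating factor, because a kappaB-like motif was found there. They are from RefSeq (GRCm38.p6), chr13:112463820-112464069 and chr4:126024409-126024658, both on the plus strand, with matches to the searched motifs in capitals.
Il6st: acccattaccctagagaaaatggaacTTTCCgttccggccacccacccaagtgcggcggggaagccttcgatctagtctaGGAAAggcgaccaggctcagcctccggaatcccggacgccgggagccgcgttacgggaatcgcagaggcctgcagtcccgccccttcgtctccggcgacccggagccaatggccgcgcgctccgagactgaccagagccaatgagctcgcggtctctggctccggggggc
Csf3r: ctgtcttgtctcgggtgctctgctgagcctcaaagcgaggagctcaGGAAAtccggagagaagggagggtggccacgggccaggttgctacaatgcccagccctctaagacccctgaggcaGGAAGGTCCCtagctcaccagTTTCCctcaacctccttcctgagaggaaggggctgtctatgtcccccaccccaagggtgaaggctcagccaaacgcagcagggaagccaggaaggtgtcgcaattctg
Motifs were searched on both strands in the 250 bases before and 50 after the start. GGAAA, the core bound by NFAT proteins, was found at bases 27 to 31 (minus strand) and 81 to 85 (plus strand) of the Il6st window and at bases 47 to 51 and 143 to 147 of the Csf3r window. It is found in 61.3% of all 32851 windows and in 63.8% of the 58 windows of the 52 members that matched. A kappaB-like motif, GGGA and TTCC with any 2 bases between them, whose reverse complement can hold GGAAA, was found at bases 122 to 131 of the Csf3r window on the minus strand. It is in 1.47% of all windows and in those of 3 members, Csf3r, Ifngr2 and Il22ra1 (5.17% of member windows). A match is a description of the letters and not a binding site.

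Il6st had levels of 10.05, 9.98, 9.89 and 9.82 in KO cells with LPS and 9.43, 9.33, 9.40 and 9.42 in WT cells with LPS. Unstimulated arrays gave 10.99, 10.98, 11.18 and 11.10 in KO cells and 11.11, 11.04, 10.99 and 11.11 in WT cells. All LPS arrays lay below all unstimulated ones, and with LPS every KO array lay above every WT array. Il6st fell by 1.13 ± 0.0795 on the log2 scale in KO cells (SE, n = 4 each; adjusted p = 3.78e-09) and by 1.67 ± 0.0795 in WT cells (adjusted p = 1.64e-11). The level with LPS was 0.54 higher in KO cells (1.46-fold, adjusted p = 0.00069), the unstimulated difference was 0.00 (adjusted p = 0.996), and the fall was smaller in KO cells by 0.54 ± 0.112 (adjusted p = 0.0224). In the 10 arrays with Xist above Kdm5d the difference with LPS was 0.42 (adjusted p = 0.169). The call for the difference in response was lost without KO array 1 or 2 or WT array 2 with LPS (adjusted p = 0.0553, 0.0511 and 0.0624) and in the 10 arrays (0.39, adjusted p = 0.678).

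Il6ra, which encodes the chain that binds IL-6 itself, moved in the same direction. Its levels were 9.30, 9.27, 9.17 and 9.05 in KO cells with LPS and 8.98, 8.77, 8.50 and 8.74 in WT cells with LPS. Without LPS they were 10.81, 11.02, 11.12 and 11.06 in KO cells and 11.11, 10.97, 11.02 and 11.04 in WT cells. The LPS arrays lay below the unstimulated ones in both genotypes, and the KO arrays lay above the WT arrays with LPS alone. The fall was 3.49-fold in KO cells (log2 change -1.80 ± 0.102, adjusted p = 2.16e-10) and 4.89-fold in WT cells (-2.29 ± 0.102, adjusted p = 6.95e-12). With LPS, Il6ra was 0.45 ± 0.102 higher in KO cells (adjusted p = 0.0192), and the difference in response, 0.48 ± 0.144, missed the threshold (adjusted p = 0.132). The genotype call was lost without KO array 1 or 2 or WT array 2 or 3 with LPS (adjusted p = 0.0737, 0.0635, 0.057 and 0.0665), with a sex term (0.11) and in the 10 arrays (difference 0.30, adjusted p = 0.446).

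Il12rb2, the signalling chain of the IL-12 receptor, gave the largest genotype difference with LPS among the 65 genes. KO cells with LPS had 8.05, 8.03, 7.53 and 7.43, and WT cells with LPS had 6.48, 6.17, 6.85 and 7.23. Unstimulated KO cells had 7.92, 8.15, 7.87 and 8.08, and unstimulated WT cells 7.16, 7.22, 7.22 and 7.52. KO arrays lay above WT arrays in both treatments, with the closest gap, between 7.43 and 7.23, at the arrays numbered 4. With LPS the difference was 1.08 ± 0.186 (2.11-fold, adjusted p = 0.00244), and without LPS it was 0.72 ± 0.186 (adjusted p = 0.0849). It was 0.74 with LPS (adjusted p = 0.291) and 0.80 without (adjusted p = 0.313) in the 10 arrays, and with LPS 0.20 between the arrays numbered 4. The genotype difference without LPS was called when the unstimulated arrays were fitted alone (0.72, adjusted p = 0.0145). In arrays numbered 1 to 3 it was called too (0.78, adjusted p = 0.0415). With LPS the gene fell by 0.60 in WT cells (adjusted p = 0.0191), a call lost without WT array 1 or 2 with LPS or unstimulated array 4 (adjusted p = 0.062, 0.0818 and 0.0685), and its change in KO cells was -0.25 (adjusted p = 0.437).

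Other chains of this family rose or showed no call. Csf3r had 10.85, 11.04, 11.04 and 11.28 in KO cells with LPS and 10.35, 10.55, 10.41 and 10.68 in unstimulated KO cells, against 11.66, 11.56, 11.07 and 11.37 in WT cells with LPS and 10.67, 10.66, 10.44 and 10.80 in unstimulated WT cells. LPS arrays lay above unstimulated ones within each genotype, with rises of 0.56 ± 0.127 in KO cells (adjusted p = 0.00252) and 0.77 ± 0.127 in WT cells (adjusted p = 8.72e-05). Between genotypes the Csf3r difference with LPS was -0.36 (KO minus WT, adjusted p = 0.184), and -0.48 without WT array 3 with LPS (adjusted p = 0.0443). The dim Il23r, the chain specific for IL-23, rose by 0.61 in KO cells (adjusted p = 0.0151, and 0.0603 without unstimulated KO array 4) and by 0.69 in WT cells (adjusted p = 0.00527). Il12rb1, which IL-12 and IL-23 share, Il27ra and Il31ra were not called in any of the 5 comparisons. Il27ra changed by 0.38 with LPS in KO cells (limma adjusted p = 0.0853). It was called there with a replicate block (0.0443) and without unstimulated KO array 2 (0.53, adjusted p = 0.0116).

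Among receptors that use the common gamma chain, and those for IL-4 and IL-13, 2 of 9 rose and 3 fell in KO cells with LPS, and 2 rose and 2 fell in WT cells. Beside these counts, 12% of all genes rose and 12.7% fell in KO cells, and 14% rose and 16.8% fell in WT cells. Il7r, the chain that binds IL-7, had 9.09, 8.94, 8.51 and 8.90 in KO cells with LPS and 11.73, 11.38, 11.25 and 11.28 in unstimulated KO cells. In WT cells it had 8.64, 7.99, 9.15 and 8.80 with LPS and 10.37, 10.08, 10.78 and 11.002 without. LPS arrays lay below unstimulated arrays in each genotype, the KO and WT arrays overlapped with LPS, and every unstimulated KO array lay above every unstimulated WT array. Il7r fell 5.86-fold in KO cells (log2 change -2.55 ± 0.219, adjusted p = 4.8e-08) and 3.77-fold in WT cells (-1.91 ± 0.219, adjusted p = 1.4e-06), and the difference in response, -0.64 ± 0.31, missed the threshold (adjusted p = 0.505). The unstimulated level was 0.86 ± 0.219 higher in KO cells, with an adjusted p of 0.0833 without a block and 0.0443 with a replicate block. Without unstimulated WT array 4 the adjusted p was 0.0404 with no block, and in the 10 arrays the difference was 0.73 (adjusted p = 0.474).

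Il21r encodes the chain that binds IL-21 and had the largest difference in response of the 65 genes. The 250 bases before its start are shown for that reason, from chr7:125603179-125603428 on the plus strand of GRCm38.p6, and hold no match to either motif.
Il21r: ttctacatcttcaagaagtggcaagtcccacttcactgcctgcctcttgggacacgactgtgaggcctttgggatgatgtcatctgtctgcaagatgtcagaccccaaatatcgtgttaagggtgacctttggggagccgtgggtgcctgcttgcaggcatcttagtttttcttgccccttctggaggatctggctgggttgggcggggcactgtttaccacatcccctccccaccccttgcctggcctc
Il21r levels were 8.20, 8.46, 8.25 and 8.14 in KO cells with LPS and 8.12, 7.91, 7.81 and 8.02 in WT cells with LPS. Unstimulated arrays gave 9.002, 8.98, 9.03 and 8.81 in KO cells and 9.97, 10.06, 9.29 and 9.56 in WT cells. Every KO array was below every WT array without LPS and above every WT array with it. The log2 change with LPS was -0.69 ± 0.138 in KO cells (adjusted p = 0.000791) and -1.75 ± 0.138 in WT cells (adjusted p = 1.14e-08). KO minus WT was -0.76 ± 0.138 without LPS (adjusted p = 0.00765), 0.30 ± 0.138 with LPS (adjusted p = 0.416) and 1.06 ± 0.196 for the response (adjusted p = 0.0131). In the 10 arrays these were -0.90 (adjusted p = 0.185), 0.18 (0.806) and 1.08 (0.511). The difference in response was called without any single array, and the unstimulated call was lost when the 8 unstimulated arrays were fitted alone (adjusted p = 0.0808).

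The IL-4 and IL-13 chains split. Il13ra1, an X-linked gene whose product pairs with that of Il4ra, had 9.59, 9.51, 9.18 and 9.18 in KO cells with LPS and 8.09, 9.09, 8.12 and 7.78 in unstimulated KO cells, against 8.98, 8.54, 8.89 and 8.74 in WT cells with LPS and 8.66, 8.96, 8.65 and 8.27 in unstimulated WT cells. The KO groups were apart, with 1 unstimulated array at 9.09 near the LPS arrays, and the WT groups overlapped. It rose 2.14-fold in KO cells (1.10 ± 0.213, adjusted p = 0.000626), its change in WT cells was 0.15 (adjusted p = 0.643), and the difference of 0.94 ± 0.302 missed the threshold (adjusted p = 0.176) except without unstimulated KO array 2 (1.22, adjusted p = 0.0116). With LPS every KO array lay above every WT array, with a difference of 0.58 ± 0.213 (adjusted p = 0.224). That difference was called when the arrays with LPS were fitted alone (adjusted p = 0.0432). Il4ra was called lower in KO cells by a narrow margin (-0.47, adjusted p = 0.0499), and the call was lost on leaving out any of 6 of the 8 KO arrays (adjusted p = 0.0647 to 0.146). Its KO minus WT difference with LPS was -0.44 (adjusted p = 0.248), and -0.66 in arrays numbered 1 to 3 (adjusted p = 0.046). Il15ra, which presents IL-15 to neighbouring cells, rose by 0.67 in KO cells (adjusted p = 8.88e-05) and by 0.57 in WT cells (adjusted p = 0.000359). The dim Il2ra rose in WT cells by 0.48 (adjusted p = 0.0193), a call lost without WT array 1 or 2 with LPS or unstimulated array 4 (adjusted p = 0.0726, 0.083 and 0.0545). KO minus WT with LPS was -0.45 for Il2ra (adjusted p = 0.143), and -0.64 without WT array 3 with LPS (adjusted p = 0.00639). Il2rb, Il9r and the decoy receptor gene Il13ra2 were not called.

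Interferon and IL-10 family receptors fell where they moved, apart from Il20rb: 4 of 10 were lower and 1 higher with LPS in each genotype. The shares of all genes were 12.7% lower and 12% higher in KO cells, and 16.8% and 14% in WT cells. Ifngr1 encodes the chain that binds interferon gamma and is the third gene called for a difference in response. The bases before its start are shown beside that result, from chr10:19591699-19591948 on the plus strand of GRCm38.p6, and they too hold neither motif.
Ifngr1: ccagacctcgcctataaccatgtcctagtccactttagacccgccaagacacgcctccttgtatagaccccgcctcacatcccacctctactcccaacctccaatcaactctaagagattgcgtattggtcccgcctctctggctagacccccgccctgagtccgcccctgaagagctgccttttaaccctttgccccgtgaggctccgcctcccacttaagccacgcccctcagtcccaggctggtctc
Ifngr1 had 10.52, 10.33, 10.34 and 10.40 in KO cells with LPS and 10.31, 9.74, 9.70 and 10.10 in WT cells with LPS. Without LPS it had 10.73, 10.97, 10.87 and 10.78 in KO cells and 11.26, 11.19, 10.98 and 11.02 in WT cells. KO arrays were above WT arrays with LPS and below them without, in both cases by a narrow margin at the closest arrays. The fall was -0.44 ± 0.12 in KO cells (adjusted p = 0.00989) and -1.15 ± 0.12 in WT cells (adjusted p = 4.6e-07), and it was smaller in KO cells by 0.71 ± 0.17 (adjusted p = 0.0499). This last call was lost on leaving out any of 13 of the 16 arrays (adjusted p = 0.0575 to 0.127) and in the 10 arrays (0.77, adjusted p = 0.617). With LPS alone the genotype difference was 0.43 ± 0.12, with an adjusted p of 0.0627 without a block, 0.0371 with a replicate block and 0.0131 without WT array 1, and it was 0.44 in the 10 arrays (adjusted p = 0.392). Ifngr2, the partner chain, was not called in any of the 5 comparisons, with LPS changes of 0.19 in KO and 0.10 in WT cells.

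Il10rb, the chain shared by IL-10, IL-22 and the lambda interferons, had 11.26, 11.13, 11.23 and 10.98 in KO cells with LPS and 12.02, 12.00, 11.98 and 11.87 in unstimulated KO cells. WT cells had 11.39, 11.35, 11.15 and 11.11 with LPS and 11.78, 11.79, 11.87 and 11.87 without. LPS arrays lay below unstimulated ones in both genotypes, while KO and WT arrays of a treatment overlapped. Il10rb fell by 0.82 ± 0.0886 in KO cells (adjusted p = 9.76e-07) and by 0.58 ± 0.0886 in WT cells (adjusted p = 4.27e-05). The receptor chains for type I interferons fell less: Ifnar2 changed by -0.59 in KO cells and -0.47 in WT cells (adjusted p = 0.00113 and 0.00553). Ifnar1 changed by -0.36 in KO cells (adjusted p = 0.0113, and 0.052 without KO array 2 with LPS). In WT cells Ifnar1 changed by -0.27 (adjusted p = 0.0487), a call lost on leaving out any of 6 of the 8 WT arrays (adjusted p = 0.07 to 0.165). Il10ra, the chain that binds IL-10, was not called with LPS by the fit of all 16 arrays. Its change in KO cells was 0.25 (adjusted p = 0.19), and 0.36 without KO array 3 with LPS (adjusted p = 0.037). Without LPS the Il10ra level was 0.46 lower in KO cells, with an adjusted p of 0.12 without a block and 0.0293 with one. In the 10 arrays that difference was -0.38. Il20rb rose by 0.37 in KO cells (adjusted p = 0.0229) and 0.57 in WT cells (adjusted p = 0.000645), and its other probe sets gave 1.05 and 0.80 in KO cells and 1.39 and 0.95 in WT cells. The KO call was lost without KO array 1 with LPS or unstimulated KO arrays 1 or 2 (adjusted p = 0.0608, 0.055 and 0.0588). The dim Il22ra2, which encodes a soluble binding protein for IL-22, was not called by the fit of all 16 arrays (0.13 with LPS and 0.14 without, KO minus WT). With a sex term it was called higher in KO cells, by 0.62 with LPS (adjusted p = 0.0228) and 0.62 without (adjusted p = 0.0343). Those calls rest on the KO arrays numbered 4, at 5.72 with LPS and 5.23 without. KO arrays 1 to 3 had 4.80 to 4.84 with LPS and 4.80 to 4.87 without.

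Il17ra, the chain common to receptors of the IL-17 family, had the largest deficit in KO cells with LPS among the 65 genes. It had 9.05, 9.16, 8.68 and 8.37 in KO cells with LPS and 10.02, 9.93, 9.48 and 9.44 in WT cells with LPS. Unstimulated levels were 8.77, 9.13, 8.58 and 8.59 in KO cells and 8.71, 8.80, 8.79 and 9.16 in WT cells. Only the WT arrays with LPS stood apart, above the 12 others. Il17ra rose 1.80-fold in WT cells (0.85 ± 0.179, adjusted p = 0.000977), and its change in KO cells was 0.05 ± 0.179 (adjusted p = 0.91). KO minus WT with LPS was -0.90 ± 0.179 (1.87-fold lower, adjusted p = 0.00742), -1.34 in the 10 arrays (adjusted p = 0.0369) and -1.06 between the arrays numbered 4, and the call was kept in all 18 other settings run. The difference in response was -0.80 ± 0.253 (adjusted p = 0.168), and 0.0484 with a replicate block and sex term. Of the 4 other IL-17 receptor genes, Il17rd rose in both genotypes by 0.35 and 0.37 (KO and WT, adjusted p = 0.00514 and 0.00259) and Il17rb, Il17rc and Il17re were not called. Il17rc changed by 0.27 with LPS in WT cells (limma adjusted p = 0.0516). It was called there with a replicate block (0.0267), a sex term (0.048) and a minimum mean of 6 (0.0435). The same held without unstimulated WT array 1 or 3 (0.0444 and 0.0171).

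Few of the measured genes for IL-1 and IL-18 receptors were called. Il1r1 and Il1rl1 were not among the members, so their response was not tested. Of the 7 IL-1 and IL-18 receptor genes, 1 was called in WT cells and 0 in KO cells by limma, where 0 also had an unadjusted p under 0.05. It was Il1rap, the accessory chain for IL-1 and IL-33, which rose by 0.69 ± 0.172 in WT cells (adjusted p = 0.00414) beside a change of 0.36 in KO cells (adjusted p = 0.159). The other 6, including the decoy receptor gene Il1r2, had mean levels under 6, where calls were rarer. Over all genes 30.8% were called in WT cells and 24.7% in KO cells. With so few genes, most of them dim, the low count does not show that IL-1 receptors lack a response. Of the 6 genes for receptors of M-CSF, GM-CSF, IL-3 and IL-5, 1 rose and 1 fell in WT cells, and 0 were called in KO cells by limma, where 1 had an unadjusted p under 0.05. Csf1r, the receptor for M-CSF on which these cells depend, had 12.97, 12.93, 12.82 and 12.78 in KO cells with LPS and 13.11, 13.11, 13.04 and 12.90 in unstimulated KO cells, against 12.66, 12.55, 12.76 and 12.72 in WT cells with LPS and 13.13, 13.22, 13.20 and 13.12 in unstimulated WT cells. The WT groups were apart and the KO groups overlapped. Csf1r fell by 0.49 ± 0.081 in WT cells (adjusted p = 8.93e-05), its change in KO cells was -0.17 (adjusted p = 0.16), and the difference in response was 0.32 ± 0.115 (adjusted p = 0.248). Csf2rb, the beta chain of the GM-CSF, IL-3 and IL-5 receptors, rose by 0.58 in WT cells (adjusted p = 0.000176) and changed by 0.27 in KO cells (adjusted p = 0.0659). Its neighbour and near copy Csf2rb2 was not called, and probes may not tell the 2 genes fully apart.

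The 20 genes of the TNF receptor superfamily held the strongest rises: 4 rose and 5 fell in KO cells with LPS, and 4 rose and 6 fell in WT cells. Among all genes 12% rose and 12.7% fell in KO cells, and 14% rose and 16.8% fell in WT cells. Tnfrsf1b, the TNF receptor that lacks a death domain, had 12.62, 12.58, 12.50 and 12.36 in KO cells with LPS and 13.06, 13.11, 12.93 and 12.80 in WT cells with LPS. Unstimulated KO cells had 11.61, 11.58, 11.57 and 11.44, and unstimulated WT cells 11.90, 11.53, 11.75 and 11.71. It was higher with LPS on every array, and with LPS every KO array was below every WT array. Tnfrsf1b rose 1.95-fold in KO cells (0.97 ± 0.0967, adjusted p = 3.42e-07) and 2.38-fold in WT cells (1.25 ± 0.0967, adjusted p = 8.64e-09), and with LPS was 0.46 ± 0.0967 lower in KO cells (adjusted p = 0.0115). That genotype call was lost without WT array 2 with LPS (adjusted p = 0.0595) and in the 10 arrays (-0.62, adjusted p = 0.134). Tnfrsf1a, the TNF receptor that carries a death domain, rose by 0.48 in KO cells (adjusted p = 0.00212) beside 0.26 in WT cells (adjusted p = 0.0788, and 0.0194 and 0.0469 without WT array 2 with LPS or unstimulated WT array 1).

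Tnfrsf10b, the mouse death receptor for TRAIL, rose with LPS in both genotypes. It had 9.14, 9.23, 9.11 and 8.74 in KO cells with LPS and 7.50, 7.97, 7.92 and 7.82 in unstimulated KO cells. WT cells had 9.35, 9.39, 9.35 and 9.45 with LPS and 7.88, 7.83, 7.86 and 8.04 without. The treatments did not overlap, with rises of 2.39-fold in KO cells (1.26 ± 0.113, adjusted p = 8.67e-08) and 2.80-fold in WT cells (1.48 ± 0.113, adjusted p = 7.57e-09). Tnfrsf14, the receptor for LIGHT known as HVEM, had 11.11, 11.51, 11.37 and 11.61 in KO cells with LPS and 9.56, 10.17, 10.22 and 10.36 in unstimulated KO cells. Its WT levels were 11.64, 11.59, 11.48 and 11.42 with LPS and 10.66, 10.30, 10.22 and 10.43 without. Here too the treatments were apart, and Tnfrsf14 rose 2.50-fold in KO cells (1.32 ± 0.151, adjusted p = 1.81e-06) and 2.19-fold in WT cells (1.13 ± 0.151, adjusted p = 8.64e-06). Neither gene was called between genotypes or for the difference in response.

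Tnfrsf21, a receptor with a death domain also known as DR6, fell most in this family. Levels with LPS were 8.47, 8.66, 8.51 and 8.53 in KO cells and 8.08, 7.69, 8.14 and 7.76 in WT cells. Unstimulated levels were 10.14, 10.38, 10.20 and 10.17 in KO cells and 10.08, 9.93, 10.07 and 10.18 in WT cells. LPS arrays lay far below unstimulated ones, and the KO arrays above the WT arrays with LPS, while the unstimulated genotypes overlapped. The fall was 3.21-fold in KO cells (-1.68 ± 0.104, adjusted p = 7.95e-10) and 4.43-fold in WT cells (-2.15 ± 0.104, adjusted p = 2.09e-11). With LPS, Tnfrsf21 was 0.62 ± 0.104 higher in KO cells (1.54-fold, adjusted p = 0.00185), 0.61 in the 10 arrays (adjusted p = 0.17) and 0.77 between the arrays numbered 4, and the difference in response was 0.47 ± 0.148 (adjusted p = 0.171).

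Tnfrsf22, Tnfrsf23 and Tnfrsf26 lie next to each other on chromosome 7, are similar in sequence, and their probes may not tell them fully apart; the products of Tnfrsf22 and Tnfrsf23 bind TRAIL as decoys in mouse. Tnfrsf23 had 6.41, 6.26, 6.48 and 6.12 in KO cells with LPS and 6.65, 6.49, 6.79 and 6.50 in WT cells with LPS. Without LPS it had 6.60, 7.14, 6.81 and 6.60 in KO cells and 7.49, 7.57, 7.56 and 7.52 in WT cells. The unstimulated WT arrays lay close together and above all 12 others. Unstimulated KO cells were 0.75 ± 0.117 lower (1.68-fold, adjusted p = 0.00217), -0.93 in the 10 arrays (adjusted p = 0.0236), and the call was kept in all 18 other settings run. With LPS, Tnfrsf23 fell by 0.47 ± 0.117 in KO cells (adjusted p = 0.00529) and by 0.93 ± 0.117 in WT cells (adjusted p = 4.71e-06), and the difference in response was 0.46 (adjusted p = 0.266). Tnfrsf22 was 0.53 lower in unstimulated KO cells, with an adjusted p of 0.197 without a block and 0.00616 with one. That difference was -0.92 with a sex term (adjusted p = 0.00913) and -1.01 in the 10 arrays (adjusted p = 0.112). With LPS it changed by -0.37 in KO cells (adjusted p = 0.113, and 0.0056 with a replicate block or 0.0315 with a sex term) and -0.86 in WT cells (adjusted p = 0.000346). Tnfrsf26 fell by 0.89 in KO cells and 0.91 in WT cells (adjusted p = 0.000228 and 0.000133) and between genotypes was not called by the fit of all 16 arrays (-0.08 with LPS and -0.10 without). With a sex term it was called lower in KO cells, with log2 differences of -0.52 with LPS (adjusted p = 0.0376) and -0.54 without (adjusted p = 0.0445). Here too the calls rest on the KO arrays numbered 4, at 5.83 with LPS and 6.61 without. KO arrays 1 to 3 had 6.25 to 6.47 with LPS and 7.11 to 7.36 without.

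Of the remaining superfamily genes, Tnfrsf11a, the RANK receptor of osteoclast precursors, fell by 0.57 in KO cells (adjusted p = 0.000939) and 0.81 in WT cells (adjusted p = 2.08e-05). Tnfrsf13b, a receptor for the B cell factors BAFF and APRIL, was called lower in KO and WT cells by small amounts (-0.24 and -0.22, adjusted p = 0.0342 and 0.0414), and Tnfrsf8, the gene of the lymphocyte activation marker CD30, was called higher in WT cells (0.28, adjusted p = 0.0372). The calls of Tnfrsf13b held in 8 of 16 other settings in each genotype, and that of Tnfrsf8 in 9 of 16, so leaving out a single array was enough to lose each of them. By the fit of all 16 arrays no call was made in any comparison for the 9 others, among them the costimulatory receptors of lymphocytes Tnfrsf4, Tnfrsf9 and Tnfrsf18. Tnfrsf9 changed by 0.24 with LPS in WT cells (adjusted p = 0.0622). It was called there without unstimulated WT array 1 (0.0272) or WT array 4 with LPS (0.0213). Tnfrsf12a changed by -0.16 with LPS in KO cells (adjusted p = 0.332), and by -0.28 without unstimulated KO array 4 (adjusted p = 0.025).

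**Figure D4:**
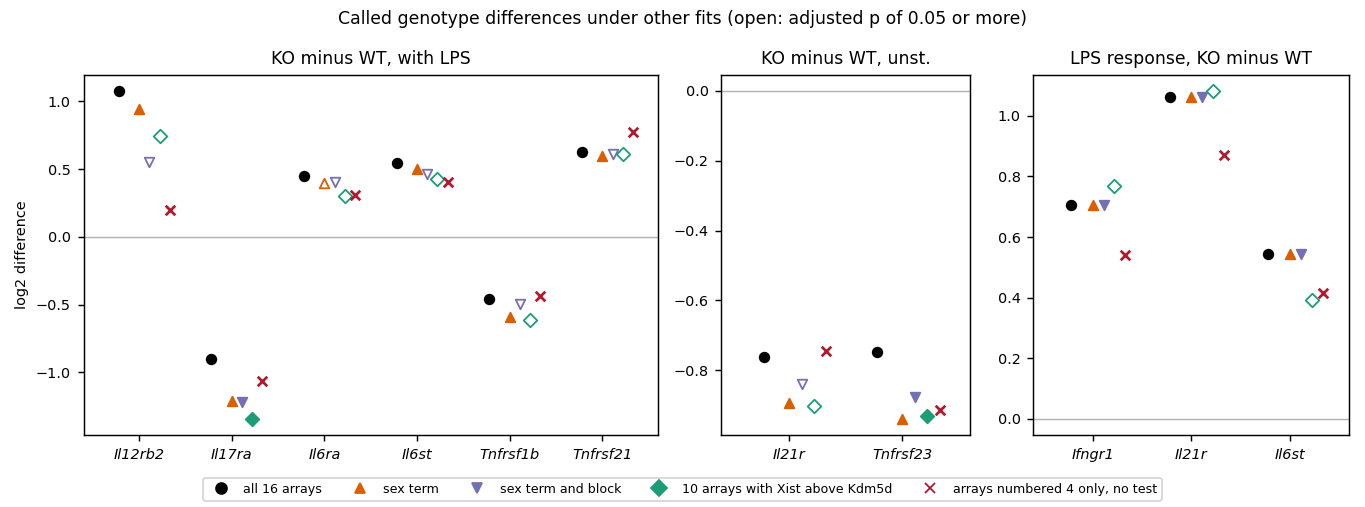
Log2 differences of the genes called between genotypes, for all 16 arrays, with a sex term, with a sex term and replicate block, in the 10 arrays with Xist above Kdm5d, and between arrays numbered 4 alone (no test). Open symbols have an adjusted p of 0.05 or more; no value crosses 0, and Il17ra and Tnfrsf23 stay filled in each fit tested.

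Several members are neighbours in the genome. By the order of protein-coding genes in RefSeq (GRCm38.p6), 28 of the 65 adjoin another member, in 16 pairs. On chromosome 16 Ifnar2, Il10rb, Ifnar1 and Ifngr2 follow each other: the first 3 fell with LPS in both genotypes and Ifngr2 was not called. Il4ra and Il21r adjoin on chromosome 7, and with LPS Il21r changed by -1.75 in WT cells while Il4ra changed by -0.12 there. Il12rb2 and Il23r adjoin on chromosome 6 and moved apart in WT cells with LPS, by -0.60 and 0.69.

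Values of genes outside the 65 are given for all 16 arrays. Over all genes 12% rose and 12.7% fell with LPS in KO cells, and 14% rose and 16.8% fell in WT cells. Between genotypes 3.05% of all genes were called with LPS and 1% without, and 1.29% for the difference in response. Receptors of the same families with other names, listed together with Ebi3, a chain of a cytokine and not a receptor, numbered 17 measured of 21 listed. With LPS, 3 rose and 1 fell in KO cells, and 4 rose and 1 fell in WT cells. The rises included Cd40, the receptor for CD40 ligand (4.28 in KO and 4.07 in WT cells), the death receptor gene Fas (2.37 in both) and Ebi3, a soluble chain of IL-27 (2.26 and 1.91), and the fall was Lifr, the LIF receptor that pairs with gp130 (-1.71 and -2.62). Between genotypes 0 were called with LPS by limma, with 1 at an unadjusted p under 0.05. Without LPS only Ebi3 was called, lower in KO cells by 0.52 (adjusted p = 0.0372).

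All 36 listed ligands of these receptors were measured. With LPS 15 of the 36 rose and 1 fell in KO cells, against 12% and 12.7% of all genes. In WT cells 21 rose and 1 fell, against 14% and 16.8% of all genes. With LPS 9 were lower and 0 higher by limma in KO than in WT cells, against 1.26% and 1.8% of all genes, with 2 higher at an unadjusted p under 0.05. The lower ones included Il6 (-1.53), Osm (-1.24) and Csf3 (-1.41), whose receptors were described above, and Il1a (-1.68), with adjusted p of at most 0.00175. The fall of Il6ra and Il6st with LPS thus stood beside a rise of Il6 by 6.40 in KO cells and 8.11 in WT cells (adjusted p = 1.06e-15 and 1.67e-17). Unstimulated KO cells had lower Tnfsf10, the gene of TRAIL (-1.11, adjusted p = 0.02).

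Signalling partners numbered 34 measured of 40 listed. With LPS 20 of the 34 rose and 5 fell in KO cells, against 12% and 12.7% of all genes. In WT cells 22 rose and 4 fell, against 14% and 16.8% of all genes. The list had mean levels of 8.90 to 10.01 on the arrays, and brighter genes were called more often. Between genotypes 1.26% of all genes were called lower in KO cells with LPS and 0.863% without. Jak2, a kinase of gp130 and of the receptors for interferon gamma and IL-12, rose by 2.52 in KO and 2.88 in WT cells (adjusted p = 9.77e-12 and 1.23e-12), and Socs3, which blocks gp130, rose by 3.19 and 3.70 (adjusted p = 9.26e-10 and 8.9e-11). With LPS 4 partners were lower in KO cells: the cytokine signalling inhibitor Cish (-1.38, adjusted p = 0.0005), Traf1, an adaptor of TNF receptors (-0.98, adjusted p = 0.000946), Jak2 (-0.54, adjusted p = 0.01) and Stat5a (-0.54, adjusted p = 0.0233). Unstimulated KO cells had lower Traf1 (-1.74), Stat2 (-0.74) and Irf9 (-0.36), with adjusted p of 2.41e-06, 0.0329 and 0.0469. For the difference in response Cish was called among the partners (-1.40, adjusted p = 0.0179), as were 6 ligands with a negative and 1 with a positive difference (KO minus WT). Of the 17 genes listed as other receptors, Ebi3 included, 0 were called by limma and 2 had an unadjusted p under 0.05.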

How the data were processed

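The authors deposited log2 expression values per probe set of a 1-channel microarray, normalized by RMA per the submitters' processing notes; its version, background settings and the scanner files are not used here. The table held 34760 probe sets, of which 21640 matched 1 gene in the platform annotation, 1321 matched several and 11799 were unnamed here; only the first were used, 1 probe set per gene. Array medians of the deposited log2 values were 6.76 to 6.86, and precision is set by how many arrays there are. A group-means model over the 16 arrays was fitted with limma 3.58.1 (R 4.3.3, lmFit and eBayes, 12 residual degrees of freedom) and gave 5 comparisons, each with Benjamini-Hochberg adjustment over 19937 genes, and the steps were tested on simulated data. The 5 comparisons share groups of arrays. Every member symbol equals its RefSeq symbol.

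Members called in a genotype comparison or for the difference in response, and the 8 with the smallest p in each LPS comparison, were given array by array, 13 in all. Csf3r, Il13ra1 and Csf1r, outside this rule, were also given array by array where their families were described. Of the other lists up to 4 genes per comparison were named, by p. The members and gene lists were chosen with earlier results of these data known. Same-numbered arrays deviated together between genotypes (correlations of 0.186 to 0.518 with LPS and 0.16 to 0.442 without). Between treatments they did not always do so (-0.0602 to 0.558). With a minimum correlation of 0.1, the numbers were judged to pair arrays between genotypes alone. Between treatments only the pairs numbered 1 fell under that minimum (-0.0602 in KO and 0.0454 in WT cells). Pairs with the other numbers gave 0.138 to 0.558, so a pairing between treatments is not excluded. The main fit nevertheless used no pairing in any comparison. The replicate block was run as an alternative for every comparison, those of treatment included. Alternatives were median centring, a minimum mean of 6, a replicate block, a fit of the compared arrays alone, the mean of all probe sets, an intensity trend, a sex term, and leaving out arrays. The fits with a block and a sex term together, and of the 10 arrays with Xist above Kdm5d, were chosen after seeing the data.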

Additional observations from a re-analysis of the deposited data

Results flagged for a closer look

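Il12rb2 in unstimulated WT cells had 1 array apart from the rest: replicate 4 at 7.519, the other 3 between 7.164 and 7.223. It was the only such case among 52 combinations of member and group, where chance marks about 1 in 20. These combinations covered 13 members, and the others were not checked. Il22ra2, for one, was not among the 13. Its KO array 4 with LPS stood at 5.72, and KO arrays 1 to 3 with LPS at 4.80 to 4.84. The LPS response differed between genotypes by a test of the difference itself for 3 genes, each with a smaller fall in KO than in WT cells: Il21r by 1.061, Ifngr1 by 0.7054 and Il6st by 0.5446 on the log2 scale. The KO arrays numbered 1 to 3 and the WT arrays also differ in Xist and Kdm5d, and the part of sex in these differences was not tested apart from the fits given with each gene.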

How the results depend on the processing

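Of 5975 member results under other settings, 0 changed direction with a call, 5843 kept their side of the threshold, 92 lost a call and 40 gained one. Members called with LPS numbered 24 in KO cells (21 to 24 on leaving out 1 array) and 29 in WT cells (25 to 31). KO against WT with LPS called 6 (4 to 7 on leaving out 1 array), 7 with the replicate block, 7 with a sex term (without Il6ra, with Il22ra2 and Tnfrsf26), 1 with the replicate block and a sex term, and 1 in the 10 arrays with Xist above Kdm5d. Without LPS it called 2 (2 to 3 on leaving out 1 array), 5 with the replicate block, 5 with a sex term (adding Il22ra2, Tnfrsf22 and Tnfrsf26), 1 with both and 1 in the 10 arrays. The difference in response called 3 (1 to 4 on leaving out 1 array: 1 without KO array 1 or 2 or WT array 2 with LPS), 3 with the replicate block, 3 with a sex term, 4 with both (adding Il17ra), and 0 by limma in the 10 arrays, where 5 had an unadjusted p under 0.05. The fit of the 10 arrays rests on fewer samples, and other causes were not tested. The replicate block changed no call for genotype or response differences beyond those given with Ifngr1, Il7r, Il10ra and Tnfrsf22.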
